A study of Saccharomyces cerevisiae with 8 samples.

Results

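The PUL gene stretch is a run of 8 genes near the right end of chromosome XIV of budding yeast, Saccharomyces cerevisiae. In the order of their reading frame names towards the telomere they are YNR061C, PUL3 (YNR062C), PUL4 (YNR063W), YNR064C, YNR065C, YNR066C, YNR068C and BSC5 (YNR069C). They are 8 of the 6267 reading frames on the arrays. They were chosen by a measured value, the increase in cells without SET2, as the neighbours of the gene with the highest ratio there. YNR067C (DSE4), which lies between YNR066C and YNR068C, is not among them and is treated here as a flanking gene. The reason for leaving it out is not given.

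The arrays compared a mutant with a wild type by 2-colour hybridisation of cDNA from purified mRNA to whole-genome reading frame microarrays. In the first group the mutant was set2Δ (4 arrays), and in the second it was labelled set2Δsir4Δ (4 arrays). Set2 methylates histone H3 in the bodies of transcribed genes, and Sir4 is part of the complex that silences chromatin at telomeres and at the silent mating cassettes. All strains grew to log phase in YPAD, a rich medium with added adenine, at 30 °C. The wild type carried the other dye on the same array, so it has no sample of its own. Dyes were balanced within each group: the mutant carried Cy3 on 2 arrays and Cy5 on 2. The strain background, and whether arrays of a group came from separate cultures or colonies, are not given in the sources used here. The p-values thus reflect differences from array to array, whose source can be purely technical.

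PUL genes take their name from pulcherrimin, a red iron-binding pigment made by some yeasts. In Kluyveromyces lactis a PUL cluster holds enzymes for the pigment's precursor, PUL3 for a transporter that takes pulcherrimin up, and PUL4 for a zinc cluster transcription factor of the cluster. S. cerevisiae does not make the pigment but has kept PUL3 and PUL4 side by side. YNR064C encodes an epoxide hydrolase, an enzyme that opens the strained ring of epoxides. YNR065C and YNR066C encode proteins that resemble the vacuolar sorting receptor Vps10. YNR068C and BSC5 share the synonym BUL3 in the reference table. BSC5 is followed by a stop codon that ribosomes can read through into YNR068C, and the joined product is related to Bul1 and Bul2, adaptors of the ubiquitin ligase Rsp5. YNR061C encodes a protein of unknown function.

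The suffix of each reading frame name gives its strand. PUL4 is read towards the telomere, and the other members are read away from it. PUL3 and PUL4 are thus transcribed away from each other from a shared intergenic region, while PUL4 and YNR064C end towards each other.

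Values are log2(mutant / wild type) as deposited, so that 1 is a doubling. An estimate is followed by ± its standard error (SE) from a limma fit over both groups with a dye term, and SD is the spread over the arrays themselves. Adjusted p-values are from the same fit with Benjamini-Hochberg adjustment over the 4554 genes tested, and a gene was called at an adjusted p under 0.05. All 8 members had values on at least 3 arrays of each group and were tested. The set2Δ values chose the members and are given without a test. Only the set2Δsir4Δ arrays are tested against wild type, and the same holds for the flanking genes and the lists below. The stated ground of the choice was the set2Δ increase. The members were chosen with earlier results of these data known, however, so the set2Δsir4Δ values may not be independent of the choice. Both comparisons are against wild type, and whether the wild-type RNA was the same preparation is not stated.

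Arrays held 4613 to 4926 values in set2Δ and 4846 to 5577 on the set2Δsir4Δ arrays. The deleted SET2 was at -3.24 and -2.61 on the 2 set2Δ arrays with a value and between -1.94 and -1.48 on the set2Δsir4Δ arrays. SIR4 was between -0.21 and 0.05 on the arrays labelled set2Δsir4Δ, and so gave no sign of that deletion. The part of the gene that the spot covers is not given, so the spot may miss the deletion. The name set2Δsir4Δ stands below for the label alone. In mating genes those arrays did differ from wild type. By limma 6 of 6 tested a-specific genes were lower, BAR1 at -5.76 and STE2 at -5.47 among them. So were 7 of 7 haploid-specific genes, beside 14.1% of all genes tested. Of 2 alpha-specific genes tested, MF(ALPHA)2 was higher, at 0.40 (limma adjusted p = 0.014), and SAG1 at 0.31 was not called (0.051). In set2Δ these 2 were at 0.66 and 0.52. Loss of Sir silencing is known to turn a-specific and haploid-specific genes off in haploid cells of mating type a, because the silent cassettes are then expressed. What part the mating state has in the results below was not tested.

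In set2Δ cells 3 neighbours stood far above the rest of the stretch. YNR064C, PUL3 and PUL4 were at 2.69, 2.41 and 0.90, while the other 5 members lay between 0.04 and 0.39. On the set2Δsir4Δ arrays 7 of the 8 members were higher than wild type by limma (adjusted p 8.4e-07 to 0.042) and 0 lower, against 11.0% higher and 14.1% lower among all 4554 genes tested. As the choice may not be independent of these arrays, the count of members is a description. YNR064C and PUL3 were again the highest, at 4.38-fold and 3.67-fold, and YNR061C was the member not called. The median of the 8 members was 0.38 in set2Δ and 0.70 on the set2Δsir4Δ arrays, beside medians of -0.01 and -0.03 over all genes tested. Because the members were chosen on the set2Δ values, the set2Δ median cannot be read against the background. The stretch did not move as a block: from the lowest to the highest member the estimates ran from -0.01 to 2.13 on the set2Δsir4Δ arrays.

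**Figure D1:**
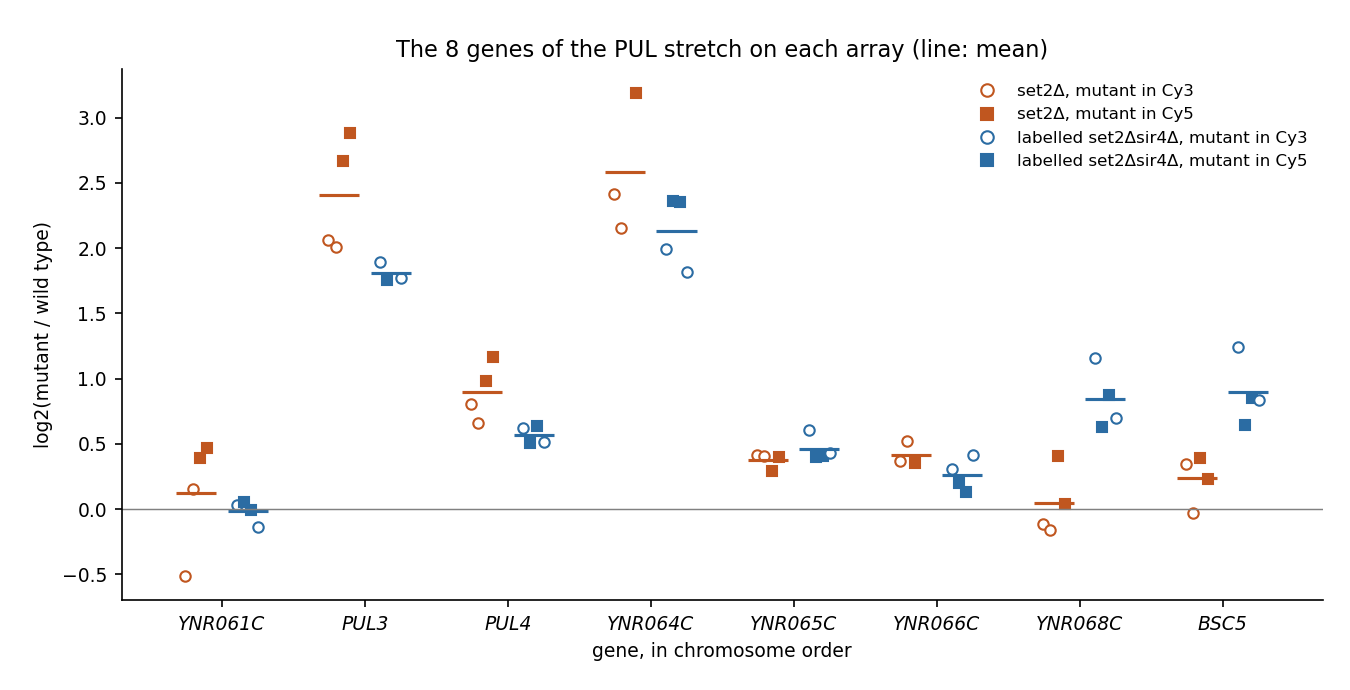
log2(mutant / wild type) of the 8 members on every array, in chromosome order, with set2Δ in orange, set2Δsir4Δ in blue, open circles for the mutant in Cy3, filled squares for the mutant in Cy5 and lines for the group means. YNR064C and PUL3 lie at or above 1.76 on every array with a value, and YNR068C and BSC5 are higher on all set2Δsir4Δ arrays than on any set2Δ array.

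The transporter gene PUL3 was at 2.06, 2.01, 2.67 and 2.88 on set2Δ arrays 1 to 4. In the set2Δsir4Δ group it was at 1.89, 1.76 and 1.77, with no value on array 3. Every set2Δsir4Δ array was thus below every set2Δ array, and all 7 were far above 0. The set2Δsir4Δ estimate was 1.88 ± 0.14 (limma adjusted p = 1.5e-05), or 3.67-fold with a 95% interval of 2.95 to 4.56. As array 3 is missing, this estimate leans on the dye term shared with set2Δ. With a dye term for each group it was 1.80.

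PUL4, the zinc cluster factor gene beside it, was at 0.81, 0.66, 0.98 and 1.16 in set2Δ. The set2Δsir4Δ values were 0.62, 0.50, 0.63 and 0.51, again with every array below every set2Δ array. Its estimate there was 0.57 ± 0.09 (limma adjusted p = 0.0012), or 1.48-fold. PUL3 exceeded PUL4 on all 7 arrays with both, by 1.25 to 1.72. This difference was 1.26 ± 0.01 (SD, n = 3) in the set2Δsir4Δ group and 1.504 ± 0.24 (SD, n = 4) in set2Δ. The pair that shares an intergenic region was therefore raised on every array, by unequal amounts.

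YNR064C, the epoxide hydrolase gene, was at 2.42, 2.16 and 3.19 on set2Δ arrays 1, 2 and 4, with no value on array 3. This gave it the highest estimate of all genes tested in set2Δ, 2.69 ± 0.12, which is the value that the choice of members rests on. The set2Δsir4Δ values were 1.996, 2.37, 2.35 and 1.81. Those ranges overlap with set2Δ, and both lie wholly above 1.8. The set2Δsir4Δ estimate was 2.13 ± 0.10 (limma adjusted p = 8.4e-07), or 4.38-fold with an interval of 3.77 to 5.11. It ranked 4 among the 4554 genes there, and PUL3 ranked 6. YNR064C was above PUL3 on all 6 arrays with both, by 0.05 to 0.61, and the ranges of the 2 genes on the set2Δsir4Δ arrays overlap.

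The 2 genes that resemble VPS10 rose by less. YNR065C was at 0.41, 0.40, 0.29 and 0.40 in set2Δ and at 0.61, 0.40, 0.41 and 0.43 on the set2Δsir4Δ arrays, with ranges that overlap. Its set2Δsir4Δ estimate was 0.46 ± 0.08 (limma adjusted p = 0.0018), or 1.38-fold. YNR066C was at 0.37, 0.52 and 0.36 on set2Δ arrays 1 to 3 and at 0.31, 0.20, 0.13 and 0.41 on the set2Δsir4Δ arrays. It too was above 0 on every array with a value. Its estimate of 0.26 ± 0.08 (1.20-fold) had a limma adjusted p of 0.042, and the call was lost without any one of the 4 set2Δsir4Δ arrays (adjusted p 0.088 to 0.18), without set2Δ array 4 (0.054) and with no dye term (0.073). These spots may share signal with VTH1 and VTH2, which are near-identical copies of each other elsewhere in the genome and are also related to VPS10. VTH2 was at 0.37 ± 0.15 (n = 3, limma adjusted p = 0.099) on the set2Δsir4Δ arrays. VTH1 averaged 0.23 ± 0.20 (SD, n = 4) there with no value in set2Δ, and PEP1, which encodes Vps10 itself, had no value on any array.

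YNR068C and BSC5, the parts of the BUL3 readthrough locus, had another pattern. YNR068C was at -0.11, -0.16, 0.41 and 0.04 in set2Δ, on both sides of 0. Its set2Δsir4Δ values were 1.16, 0.63, 0.87 and 0.70. BSC5 was at 0.35, -0.03, 0.39 and 0.23 in set2Δ and at 1.25, 0.65, 0.85 and 0.84 on the set2Δsir4Δ arrays. For both genes every set2Δsir4Δ array was above every set2Δ array. Their set2Δsir4Δ estimates were 0.84 ± 0.12 (1.79-fold, limma adjusted p = 0.00064) and 0.90 ± 0.11 (1.86-fold, limma adjusted p = 0.00029). The pair was close on each of these arrays, with BSC5 minus YNR068C between -0.02 and 0.14.

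YNR061C, at the centromere side of the stretch, was at -0.51, 0.15, 0.39 and 0.47 in set2Δ. Its set2Δsir4Δ values were 0.03, 0.06, -0.01 and -0.14. Values of both groups thus lay on both sides of 0, and the estimate of -0.01 ± 0.12 on the set2Δsir4Δ arrays was not called by limma (adjusted p = 0.95). Its sign turned with centring of the arrays. The order of the members by their mean on the set2Δsir4Δ arrays was YNR064C, PUL3, BSC5, YNR068C, PUL4, YNR065C, YNR066C and YNR061C. Only the steps from PUL3 to BSC5 and from YNR066C to YNR061C separated the arrays of both neighbours, by 0.51 and 0.07, while at the other 5 steps the ranges overlap.

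Between the groups the stretch moved in both directions. PUL3 and PUL4 were lower on every set2Δsir4Δ array than on any set2Δ array, 2 of 8 members against a background of 4.61% of all genes tested. YNR068C and BSC5 were higher on every set2Δsir4Δ array, 2 of 8 against 3.71%. The other 4 members had ranges that overlap. Of the flanking genes, 3 were also higher on every set2Δsir4Δ array with a value (PDR18, AIF1 and COS10). None was lower on every such array, and 15 had ranges that overlap, DSE4 among them. The estimate on the set2Δsir4Δ arrays minus that in set2Δ was -0.53 for PUL3, -0.33 for PUL4 and -0.56 for YNR064C, and 0.80 for YNR068C and 0.66 for BSC5. Since the set2Δ arrays chose the members, these differences are descriptions and nothing is read from the counts.

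Dye orientation moved the values of several members in set2Δ. The mean with the mutant in Cy5 minus that in Cy3 was 0.90 for YNR064C, 0.74 for PUL3, 0.61 for YNR061C, 0.36 for YNR068C, 0.34 for PUL4 and 0.15 for BSC5. For YNR065C and YNR066C it was -0.06 and -0.09. Over all genes tested this difference had an SD of 0.58 in set2Δ and 0.25 on the set2Δsir4Δ arrays. On the latter it was 0.45 for YNR064C and between -0.29 and 0.08 for the other members. YNR064C, PUL3, PUL4, YNR065C and YNR066C were above 0 on every array with a value, and so in both orientations and both groups. BSC5 was below 0 only on set2Δ array 2, at -0.03.

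**Figure D2:**
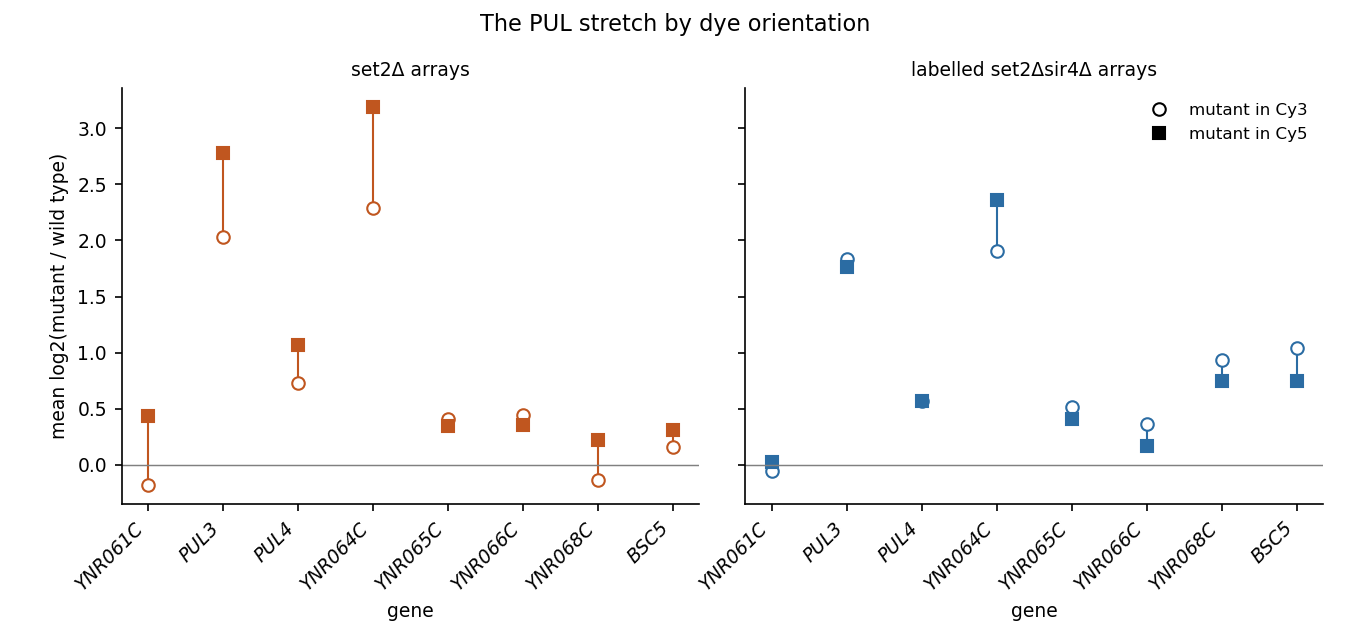
Mean log2(mutant / wild type) of each member over the arrays with the mutant in Cy3 (open circles) and in Cy5 (filled squares), for the set2Δ arrays on the left and the set2Δsir4Δ arrays on the right. In set2Δ the orientations lie 0.90 apart for YNR064C and 0.74 apart for PUL3. On the set2Δsir4Δ arrays the widest gap is 0.45, for YNR064C.

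The flanks were looked at gene by gene. On the centromere side, FRE4, which encodes a reductase of siderophore-bound iron, is the gene next to YNR061C. It was at -0.65, 0.46 and 0.26 on set2Δ arrays 1, 3 and 4 and at -0.09, 0.09, 0.24 and -0.11 on the set2Δsir4Δ arrays, on both sides of 0 in both groups. Of the 10 genes from BRE5 to FRE4, all tested, 0 were higher and 3 lower on the set2Δsir4Δ arrays by limma. Among all genes tested 11.0% were higher and 14.1% lower. The lower genes were NOG2 (-0.64 ± 0.12, adjusted p = 0.0032) and ESF2 (-0.63 ± 0.09, adjusted p = 0.00092), both of ribosome assembly, and the deadenylase gene POP2 (-0.28 ± 0.09, adjusted p = 0.043). POP2 was not called without any one of the set2Δsir4Δ arrays (adjusted p 0.088 to 0.15), without set2Δ array 4 (0.068), with no dye term (0.10) or with array number as a replicate block (0.13). The other 6, BRE5, the transporter gene HOL1, the biotin synthesis genes BIO5, BIO4 and BIO3 and the mannosyltransferase gene MNT4, had estimates between -0.06 and 0.25. The median of the 10 genes was 0.04.

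DSE4, inside the stretch, encodes a glucanase that helps daughter cells separate. It was at -0.60, -0.11, 0.41 and 0.32 in set2Δ and at 0.51, 0.37, 0.50 and 0.24 on the set2Δsir4Δ arrays. Its estimate of 0.41 ± 0.12 was called by limma (adjusted p = 0.032), but not when set2Δ array 4 was left out (adjusted p = 0.052), nor when array 1, 3 or 4 of set2Δsir4Δ was (0.066 to 0.20). The call was also lost with no dye term (limma adjusted p = 0.086) and with array number as a replicate block (0.095). Next to BSC5, the ABC transporter gene PDR18 had 3 values in set2Δ, between 0.03 and 0.69. It had 2 on the set2Δsir4Δ arrays, 0.69 and 0.87, too few to be tested.

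Beyond PDR18 the ratios were mixed. YNR071C, next to it, was at -0.28 ± 0.11 on the set2Δsir4Δ arrays and not called by limma (adjusted p = 0.087). The hexose transporter gene HXT17 was at -0.68 ± 0.09 (limma adjusted p = 0.00053) and the mannitol dehydrogenase gene MAN2 at -0.77 ± 0.13 (limma adjusted p = 0.0024) on the set2Δsir4Δ arrays. Both had similar values in set2Δ, -0.69 and -0.84. They have closely similar relatives at other chromosome ends, so their spots may share signal. AIF1, which encodes a mitochondrial cell death factor homologue, was between -1.76 and -1.46 in set2Δ and between 0.10 and 0.30 on the set2Δsir4Δ arrays. COS10, of a family of similar subtelomeric membrane proteins, was between -2.93 and -1.51 on 3 set2Δ arrays and between -0.54 and -0.29 on the set2Δsir4Δ arrays. The genes with the lowest and the highest estimates of all genes tested in set2Δ, COS10 and YNR064C, thus lie on the same chromosome end. PAU6, of a cell wall protein family, stood at -0.54 in set2Δ and at -0.06 on the set2Δsir4Δ arrays, where it was not called by limma (adjusted p = 0.70). YNR075C-A had no value on any array. YNR077C, the last reading frame, had no value in set2Δ and stood at 2.08, 2.02, 1.11 and 1.19 on the set2Δsir4Δ arrays. For lack of set2Δ values it was not in the fit of both groups, but it was higher with the set2Δsir4Δ arrays fitted alone (limma adjusted p = 1.3e-05). Over the 17 flanking genes tested in both groups, 1 was higher and 5 lower, with a median of -0.06, beside 11.0% and 14.1% of all genes. With the set2Δsir4Δ arrays alone, 4 flanking genes were higher and 7 lower, beside 1166 and 1374 of the 5469 genes tested in that fit.

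**Figure D3:**
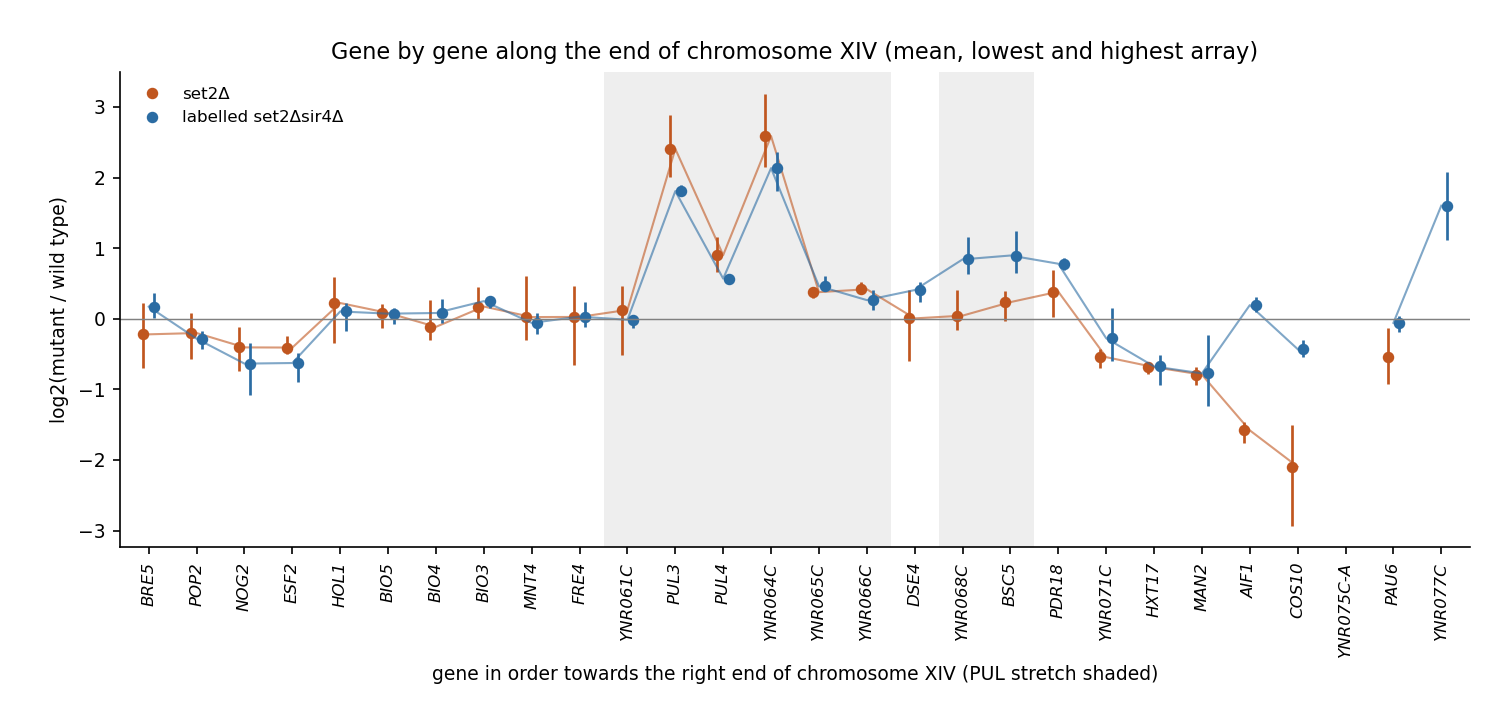
log2(mutant / wild type) for each gene from BRE5 to the right end of chromosome XIV, evenly spaced in gene order, as the mean (points) with the lowest and highest array (bars), for set2Δ in orange and set2Δsir4Δ in blue, with the members shaded. Both groups peak at PUL3 and YNR064C, and the group means lie farthest apart at AIF1 and COS10.

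Genes with the profile most like the 2 highest members were sought over all arrays. Likeness was the root mean square difference of the log2 ratios over the arrays that both genes share, at least 6. The members YNR064C and PUL3 differed from each other by 0.32 over 6 arrays. Outside the stretch, the 5 genes closest to YNR064C were YGP1 (0.67, 7 arrays), HSP12 (0.78, 7 arrays), LYS2 (0.81, 6 arrays), OPT2 (0.84, 6 arrays) and GLK1 (0.86, 7 arrays). Closest to PUL3 were YGP1 (0.41, 7 arrays), OPT2 (0.69, 6 arrays), ALD4 (0.72, 7 arrays), PGM2 (0.74, 7 arrays) and HSP12 (0.80, 7 arrays). YGP1 encodes a secreted glycoprotein, HSP12 a small heat shock protein, OPT2 an oligopeptide transporter, and GLK1, PGM2 and ALD4 enzymes of sugar and aldehyde metabolism. The arrays share dye orientation and may share wild-type RNA, and a gene with a high ratio throughout is close by this measure whatever its spread between arrays.

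HSP12 and GLK1 were close in level but opposite in dye orientation, with Cy5 minus Cy3 at -0.84 and -1.07 in set2Δ. LYS2, of lysine synthesis, had the widest such difference of the 7 genes, -1.66 with 3 values. YGP1, OPT2 and ALD4 had the orientation difference of PUL3, at 0.53, 0.81 and 0.86. Several of these genes are on the list of general stress genes. Of 21 stress genes tested, 16 were higher and 1 lower on the set2Δsir4Δ arrays, with a median of 1.08, beside 11.0% and 14.1% of all genes and their median of -0.03. In set2Δ their median was 0.83. The stress genes thus stood higher on the same arrays as the stretch, and their part in its values was not tested. This list, like the others here, was drawn up with earlier results of these data known, so its counts are descriptions.

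**Figure D4:**
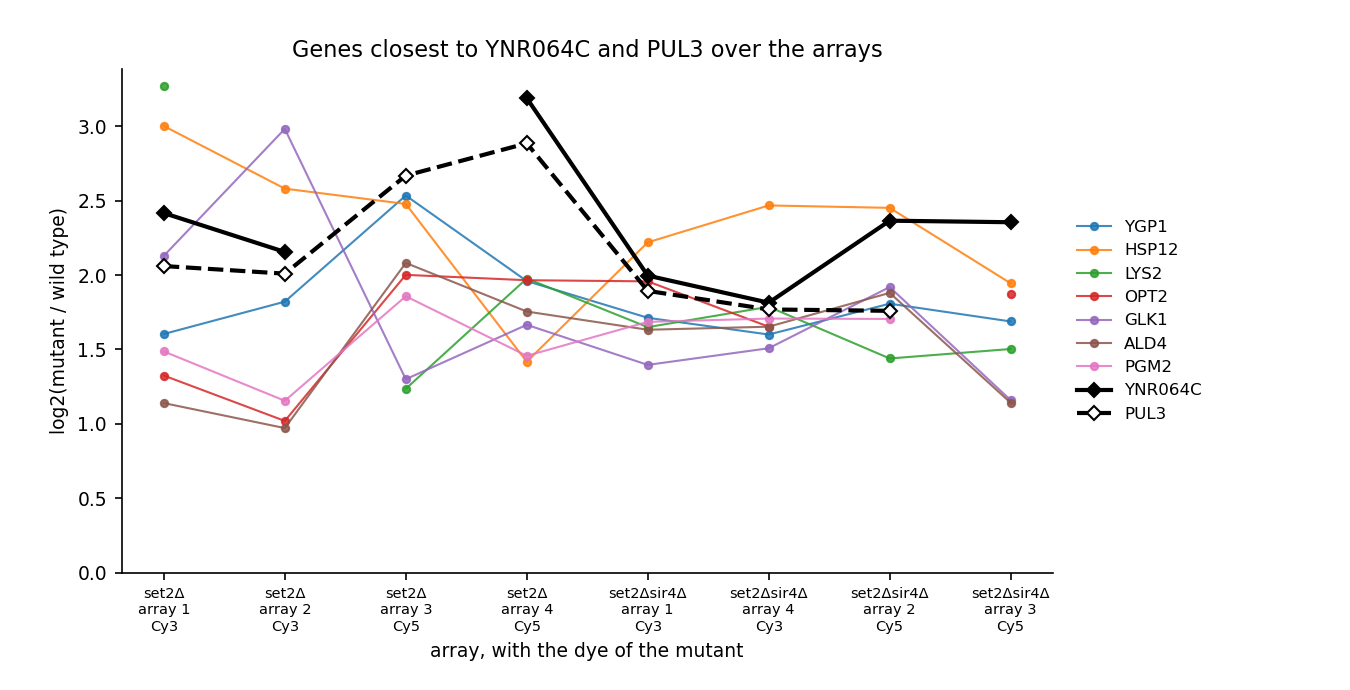
log2(mutant / wild type) of YNR064C and PUL3 (black diamonds) and of the 7 genes closest to either (colours) on each array, sorted by group and by the dye of the mutant; lines only join values of a gene and mark no order, and gaps are missing values. YNR064C and PUL3 share the rise on set2Δ array 4, where HSP12 is at 1.42.

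Other genes with the roles of the members were looked up. Pulcherrimin binds iron, and of 22 iron uptake genes tested 6 were higher and 2 lower on the set2Δsir4Δ arrays by limma, with a median of 0.07, against the 11.0% and 14.1% of all genes. The ferric reductase gene FRE2 was at 1.02 ± 0.15 (n = 3, limma adjusted p = 0.0011), and its set2Δ values of 0.77, 0.74, 1.32 and 1.34 followed the dye as those of PUL3 did. The copper transporter gene CCC2, which loads the iron uptake oxidase, was at 0.59 ± 0.09 (limma adjusted p = 0.0014), and ATX1, a copper chaperone, at 0.55 ± 0.12 (limma adjusted p = 0.0091). The cell wall mannoprotein gene FIT2 was lower, at -0.67 ± 0.12 (limma adjusted p = 0.0022).

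Of 14 genes for Rsp5 and its adaptors tested, 2 were higher and 0 lower by limma on the set2Δsir4Δ arrays, with a median of 0.07. The share higher is near the 11.0% of all genes. These were SSH4 (0.46 ± 0.11, adjusted p = 0.011) and RIM8 (0.58 ± 0.15, adjusted p = 0.016). BUL1 and BUL2, the relatives of the YNR068C and BSC5 product, were at 0.08 ± 0.09 and 0.06 ± 0.10 (n = 3), with limma adjusted p = 0.59 and 0.74. RSP5 itself was at 0.14 ± 0.13 (limma adjusted p = 0.51). Among other genes with a stop codon that is read through, BSC6 was the one tested in the fit of both groups, at -0.19 ± 0.10 (limma adjusted p = 0.17). BSC1 had too few set2Δ values for that fit. It was between -2.39 and -0.996 on 3 set2Δsir4Δ arrays, and below 0 on the 2 set2Δ arrays with a value. With the set2Δsir4Δ arrays fitted alone BSC1 was lower, at -1.69 (limma adjusted p = 0.00015).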

How the data were processed

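Each array held mutant and wild-type cDNA in opposite dyes. The authors deposited log2 ratios of mutant over wild type. The sources used here do not state how these were normalized. Spacing showed the scale: taken as base 2 with Cy5 over Cy3, 100% of gaps between ratios on each array were whole multiples of 1 step (tolerance 0.02), against at most 7.69% under other bases or signs. Array medians lay near 0 and no further normalization was applied. Precision is limited by the number of arrays, 4 in a group.

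Genes measured on 3 or 4 arrays of both groups (4554 of 6267) were fitted with limma 3.58.1 in R 4.3.3, with a mean for each group and 1 dye term. The fit was tested on simulated data. Alternatives were other scalings, dye terms, filters, weights, a replicate block and each array left out. Names and gene order came from the reference table (5856 matched). The labels name no genome build for the arrays, so no coordinates are given. The members and lists were chosen with earlier results of these data known. Genes were named by rule: all members and flanks, the 5 closest to YNR064C and to PUL3, and up to 4 of each list with the smallest p. BUL1, BUL2, RSP5, VTH1, PEP1 and BSC1 were named after their values were seen.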

Additional observations from a re-analysis of the deposited data

Results flagged for a closer look

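In 4 of 92 groups of 4 arrays looked at, 1 array stood apart from the other 3, where chance flags about 1 in 20. YNR065C was at 0.29 on set2Δ array 3 (others 0.40 to 0.41) and at 0.61 on set2Δsir4Δ array 1 (others 0.40 to 0.43). HOL1, a flanking transporter gene, was at -0.18 on set2Δsir4Δ array 2 (others 0.17 to 0.22), and STE4, a haploid-specific gene, at -0.58 on set2Δ array 2 (others -0.08 to -0.02).

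For 2 genes every array of one group lay on the other side of 0 from every array of the other group. AIF1 on the telomere side was below 0 in set2Δ and above 0 on the set2Δsir4Δ arrays, and the means differed by 1.77. ALY2, an Rsp5 adaptor gene, was above 0 in set2Δ and below 0 on the set2Δsir4Δ arrays, with a difference of -0.45. These differences were not tested.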

How the results depend on the processing

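On the set2Δsir4Δ arrays PUL3, PUL4, YNR064C, YNR065C, YNR068C and BSC5 kept their direction and their call in each alternative that could give a value. The estimates ran from 1.75 to 2.20 for PUL3 and from 2.01 to 2.41 for YNR064C. The count of members called higher was 4 with complete genes only, where 5 members could be tested, beside 397 of all 3426 genes tested there. YNR061C, not called in any setting, changed sign with centred arrays (0.0041), centred and scaled arrays (0.0055) and array weights (0.0010), and ran from -0.10 to 0.052 over the left-out arrays. Flanking genes called higher numbered 2 with centred and scaled arrays, quantile normalization or a dye term for each group, 3 with array weights or no filter, 4 with the set2Δsir4Δ arrays alone, 0 with no dye term, the replicate block or an adjusted p under 0.01, and 0 to 2 over the left-out arrays. Of all genes, 1166 were higher and 1374 lower with the set2Δsir4Δ arrays alone, 806 and 1038 with array weights, and 286 and 337 at an adjusted p under 0.01. Left-out arrays gave 281 to 562 higher and 320 to 729 lower, the fewest without set2Δsir4Δ array 1. The cause was not tested.

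For array numbers 1 to 4, deviations of equal numbers correlated across genes at 0.21, -0.16, 0.13 and -0.21. These signs follow the dyes, as numbers 1 and 3 have the same orientation in both groups and 2 and 4 opposite ones. With the dye difference removed the correlations were 0.07, -0.06, -0.07 and 0.03. The array numbers thus gave no clear sign of pairing. With the number as a replicate block, 6 members were higher, YNR066C being lost (limma adjusted p = 0.17). Of the 4510 genes tested in that setting, 346 were higher and 401 lower.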
